A study of Mus musculus with 4 samples.

Results

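The CTCF sites described here are those of mouse chromosome 11, the autosome chosen by having the most listed CTCF sites per Mb. All rows of chromosome 11 in the deposited lists were taken, which gave 890 of 10113 sites at ZT0 (8.80%) and 600 of 6799 sites at ZT12 (8.82%). CTCF binding was measured by ChIP-seq, the sequencing of DNA that an antibody (10 µg, against CTCF) pulls down together with its protein, and a site is an interval where such reads pile up. The livers came from male wild-type C57BL/6 mice. The mice were 8 weeks old at the start of 2 weeks in 12 h of light and 12 h of darkness, with food at all times. The livers were fixed with 1% formaldehyde for 5 min. Livers were taken at ZT0, when the lights went on, and at ZT12, when they went off, with 2 biological replicates at each time. Both replicates of a time stand in the same deposited list, which has a chromosome, start and end for each site and no height, strand or replicate. The spread between replicates could therefore not be measured, the depth behind a site is unknown, and a difference between the times has no replicate check. The lists hold fewer sites than the study counted for CTCF in all, and the sources used here do not say why. Densities, stretches without a site and shares listed at both times therefore describe these lists, not all CTCF binding in liver. Intervals given below are 95% intervals that cover counting error only, because sites are not biological replicates.

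CTCF is a zinc finger protein that binds a long, GC-rich DNA motif. It holds up the cohesin complex as this extrudes loops of chromatin, most often where a pair of motifs point towards each other, and so helps to set the borders of topological domains. In liver, as in other tissues, many of its sites are occupied whatever the cell type, while sites near promoters and enhancers vary more.

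Chromosome 11 is 121.8 Mb long in the NCBIM37 (mm9) build. At ZT0 it carried 7.30 sites per Mb (exact Poisson interval 6.83 to 7.80), and the next autosome in order was chromosome 19 with 5.64 sites per Mb. The other 18 autosomes had a median of 4.07 sites per Mb, and chromosome 3 was the lowest with 2.82. The ratio of chromosome 11 to chromosome 19 was 1.30 (1.14 to 1.47). At ZT12 chromosome 11 carried 4.92 sites per Mb (4.54 to 5.33), against 3.78 on chromosome 19. These densities chose the chromosome and are given as a description. The ZT12 list holds largely the same sites as the ZT0 list, so its order of chromosomes is not a separate observation.

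Chromosome 11 was also among the autosomes richest in genes and in GC. It holds 1653 protein-coding genes, or 13.57 per Mb, next to chromosome 7 with 13.58, and its GC content of 43.8% was the highest of the 19 autosomes, ahead of chromosome 7 with 43.0%. Chromosome 7 had 5.02 ZT0 sites per Mb and the fewest per 100 protein-coding genes, 36.9. Per 100 annotated protein-coding genes chromosome 11 had 53.8 ZT0 sites and stood in place 5, below chromosome 15 with 56.3. Per 100 annotated genes of any type it had 30.1 ZT0 sites and stood in place 10, near the median of the other autosomes, which was also 30.1. Genes of any type were annotated in unlike proportion to protein-coding genes, with 2953 for 1653 on chromosome 11 and 1119 for 797 on chromosome 15. The place by genes of any type depends on this. The part of gene number, annotation and GC content in the density was not tested.

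Sites were unevenly spread along the chromosome. Of its 122 bins of 1 Mb, the first 3 are unsequenced, and the remaining 119 held a median of 6 ZT0 sites, with quartiles of 1.5 and 11 and a maximum of 30. Over the 2291 sequenced bins of the other autosomes the median was 2 and the maximum 35. Bins with 20 or more ZT0 sites numbered 11 on chromosome 11 (9.24%) and 38 elsewhere (1.66%). Bins without any ZT0 site numbered 17 (14.3%), against 653 on the other autosomes (28.5%). At ZT12 the empty bins numbered 25 (21.01%), against 800 (34.9%). The densest 12 bins of chromosome 11 held 31.2% of its ZT0 sites, whereas the densest 230 of the 2291 bins on the other autosomes held 38.9% of theirs. Numbers of dense and of empty bins follow the density by which the chromosome was chosen, and are not separate observations.

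The sites were sparsest from 10 to 40 Mb and dense towards the distal end. The first 10 Mb held 57 ZT0 sites. The 10 Mb from 10 to 20 Mb held 12 ZT0 and 7 ZT12 sites with 25 protein-coding gene starts. The next 10 Mb held 20 and 14 sites with 51 gene starts. From 70 to 80 Mb there were 111 ZT0 and 82 ZT12 sites with 222 gene starts, and from 110 to 120 Mb there were 130 and 87 sites with 154 gene starts. Mean GC content was 39.5% in the sparsest of these blocks and 47.5% in the densest.

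Over the 119 sequenced bins, the number of ZT0 sites followed the number of annotated gene starts with a Pearson r of 0.68 and a Spearman rho of 0.80, and GC content with an r of 0.81 and a rho of 0.88. These correlations describe bins that share a chromosome and libraries. In the 12 bins with 30 or more protein-coding gene starts there were on average 17.5 ± 9.4 ZT0 sites (SD over bins), against 12.4 ± 8.1 in 110 such bins elsewhere. In the 21 bins with 1 to 4 gene starts the means were 1.57 on chromosome 11 and 1.37 elsewhere. At like GC content the means were close in some classes and apart in others. Bins of 46 to 48% GC held 10.95 sites on average on chromosome 11 and 10.97 elsewhere, bins of 44 to 46% held 8.88 and 6.78, and bins of 40 to 42% held 2.08 and 2.40. In the most GC-rich bins, of 48% or more, the 14 bins of chromosome 11 averaged 20.2 ± 6.2 sites and the 124 bins elsewhere 14.5 ± 5.7.

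The densest bin, from 98 to 99 Mb, held 30 ZT0 and 22 ZT12 sites, and 21 of the 30 were shared between the times. It has 34 protein-coding gene starts, and 5 of these genes had an annotated transcript start within 1 kb of the middle of a ZT0 site. They were Thra, which encodes thyroid hormone receptor alpha, at 72 bp, the uncharacterised 1810046J19Rik at 74 bp, Wipf2, which acts on the actin cytoskeleton, at 93 bp, Igfbp4, which encodes a binding protein of insulin-like growth factors, at 767 bp, and the gap junction gene Gjd3 at 847 bp. The bin also holds Nr1d1 and Rara, described with the fixed gene lists below.

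Within this bin, around the neighbouring gasdermin A genes Gsdma3 and Gsdma, of a family of pore-forming proteins, 4 ZT0 sites carried motifs that came in identical pairs. They were singled out after their values were seen, and are shown because the pair on the minus strand, with the same motif, differed in when it was listed. Both sites of the pair on the plus strand were listed at ZT0 only. Each line gives 59 bases of the NCBIM37 reference, 5′ to 3′, on the strand of the motif, with the 19 bases that best match the CTCF matrix in capitals. The sites at chr11:98468034-98468378 and chr11:98521940-98522210 have the motif on the plus strand, and those at chr11:98496796-98497089 and chr11:98534365-98534856 have it on the minus strand.
Site from 98468034, plus strand, ZT0 only: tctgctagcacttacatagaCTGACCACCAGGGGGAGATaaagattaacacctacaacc
Site from 98521940, plus strand, ZT0 only: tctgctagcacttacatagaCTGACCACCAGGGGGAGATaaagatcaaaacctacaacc
Site from 98496796, minus strand, ZT0 only: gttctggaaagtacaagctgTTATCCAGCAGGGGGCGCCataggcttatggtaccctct
Site from 98534365, minus strand, listed at both times: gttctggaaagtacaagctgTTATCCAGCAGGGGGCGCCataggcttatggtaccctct
The site listed at both times lies in an intron of Gsdma and was 492 bp wide. Those listed at ZT0 only were, in the order shown, 345, 271 and 294 bp wide, so the shared site was the widest of the 4.

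The bin from 115 to 116 Mb held 28 ZT0 and 18 ZT12 sites, all 18 of which were shared, with 42 protein-coding gene starts and a GC content of 50.4%. Here 12 genes had a start within 1 kb of a ZT0 site. The nearest were Grin2c, a subunit of NMDA-type glutamate receptors, at 73 bp, Fads6, of the fatty acid desaturase family, at 119 bp, Mif4gd at 137 bp, the small GTPase gene Rab37 at 347 bp, Trim65 at 420 bp, Otop2 at 425 bp, Ush1g at 459 bp and Caskin2 at 494 bp. The neighbouring bin from 116 to 117 Mb held 24 and 17 sites, and all 17 ZT12 sites were shared. Its genes near a site included Mgat5b, a glycosyltransferase gene, at 53 bp, Prpsap1 at 178 bp, the mitochondrial ribosomal gene Mrpl38 at 218 bp, the sphingosine kinase gene Sphk1 at 316 bp, 1810032O08Rik at 334 bp and Foxj1, a regulator of motile cilia, at 437 bp.

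The bins that start at 94 Mb and at 100 Mb also held 24 ZT0 sites each, with 15 and 13 ZT12 sites. Genes with a start at a ZT0 site were Rsad1 at 22 bp, Lrrc59 at 65 bp, the sarcoglycan gene Sgca at 168 bp, the integrin gene Itga3 at 426 bp and the collagen gene Col1a1 at 871 bp in the former. In the latter they were Nkiras2, an inhibitor of NF-kappa-B signalling, at 97 bp, Jup, which encodes the junction protein plakoglobin, at 253 bp, Leprel4 at 258 bp, Psmc3ip at 380 bp and Hspb9 at 810 bp. Fewer of the ZT0 sites were shared in these bins, 13 and 12 of 24, than in the bin from 116 to 117 Mb, with 17 of 24. The intervals of such small counts are wide.

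Some gene-rich bins held few sites, and those given here were picked after their values were seen. The bin from 99 to 100 Mb has the most protein-coding gene starts of the chromosome, 79, many of them of the keratin cluster, and held 5 ZT0 and 3 ZT12 sites. The bin from 73 to 74 Mb has 30 gene starts, overlaps a group of 29 olfactory receptor genes, and held 1 ZT0 site and no ZT12 site. Without the olfactory receptor and keratin genes, which were picked out once the data had been seen, the Pearson correlation of ZT0 sites with gene starts over bins was 0.77.

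The longest stretch of chromosome 11 without a site at either time ran from 12459514 to 16312591, a length of 3.85 Mb. It ranked 58 among such stretches of all 19 autosomes, on which the longest stretch of another chromosome ranged from 2.72 Mb on chromosome 19 to 11.7 Mb on chromosome 14. Stretches over 1 Mb numbered 18 on chromosome 11 and took up 27.9% of it, the lowest share of the 19 autosomes, where chromosome 19 came next with 31.3%. The median distance between consecutive sites of either list was 44.5 kb on chromosome 11. Like the density that chose the chromosome, these values are given as a description.

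These 5 longest stretches held few protein-coding genes, and their GC content lay between 37.5 and 39.9%. The longest held only Gm17624 and part of Vstm2a, between Cobl, an actin nucleator gene, and Sec61g, a subunit of the protein translocation channel of the endoplasmic reticulum. The next, of 3.16 Mb from 90168614 to 93333138, held Hlf, Stxbp4, the cytochrome oxidase assembly gene Cox11, Tom1l1, the kinesin gene Kif2b and part of Car10, between Mmd and Utp18. A stretch of 2.91 Mb from 23949615 to 26861664 held Bcl11a, a transcriptional repressor gene best known for silencing fetal globin, the Fanconi anaemia gene Fancl, the kinase gene Vrk2, Gm6899, 5730522E02Rik, which is annotated there as 2 genes, and part of A830031A19Rik, between Papolg and Gm6685. Stretches of 2.32 Mb from 9036832 and of 2.23 Mb from 38357820 followed. The former held Abca13, Vwc2 and part of Zpbp, between Upp1 and 4930415F15Rik, and the latter held Mat2b, which encodes the regulatory subunit of methionine adenosyltransferase, Hmmr, Nudcd2 and the cyclin gene Ccng1 beside the teneurin gene Odz2.

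The sites at the edges of these stretches all carried a motif above the threshold explained below. At the stretches of 3.16 and 2.91 Mb the edge motifs pointed into the stretch, on the plus strand at the left edge and on the minus strand at the right. At the stretches of 2.32 and 2.23 Mb they pointed away from it, and at the longest stretch both were on the minus strand. Of the 10 edge sites, 5 were listed at both times, 3 at ZT0 only and 2 at ZT12 only. The motifs that face each other across the stretch with Hlf are shown with 20 bases on both sides and the 19-base match in capitals, each on its own strand.
Left edge, chr11:90168349-90168613, plus strand, listed at both times: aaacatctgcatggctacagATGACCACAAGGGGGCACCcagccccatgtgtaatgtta
Right edge, chr11:93333139-93333435, minus strand, ZT12 only: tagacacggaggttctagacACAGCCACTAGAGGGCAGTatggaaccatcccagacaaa
Their log-odds scores, in bits against equal base frequencies, were 22.4 and 21.3, the highest of the 10 edge sites.

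Sharing means an overlap of 1 bp or more between a ZT0 and a ZT12 site. On chromosome 11, 363 of 890 ZT0 sites (40.8%) were listed at ZT0 only, beside 43.8% of all ZT0 sites of the series. Of the 600 ZT12 sites, 73 (12.2%) were listed at ZT12 only, beside 16.4% of all ZT12 sites. The shared share was 59.2% of ZT0 sites (Wilson interval 56.0 to 62.4%) and 87.8% of ZT12 sites (85.0 to 90.2%).

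Chromosome 11 stood in place 3 of 19 by the shared share of ZT0 sites, behind chromosome 7 with 60.7%, and in place 1 by that of ZT12 sites, ahead of chromosome 4 with 86.0%. Against the other autosomes pooled, the share was higher by 3.10 percentage points for ZT0 sites (Newcombe interval -0.31 to 6.44), which includes 0, and by 4.35 points for ZT12 sites (1.35 to 6.91). When the ZT0 list was reduced to its 6799 widest sites, to be as long as the ZT12 list, the share was 67.5% on chromosome 11 and 66.9% on the other autosomes. The difference between chromosome 11 and the others was then 0.511 points.

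Sharing was lowest in the sparse bins. In bins of chromosome 11 with 1 to 4 ZT0 sites, 29 of 66 sites were shared (43.9%, 32.6 to 55.9%), and in bins with 5 to 9 sites, 128 of 228 (56.1%, 49.7 to 62.4%). In bins with 10 to 14 sites it was 130 of 205 (63.4%, 56.6 to 69.7%), and in bins with 15 or more, 240 of 391 (61.4%, 56.5 to 66.1%). On the other autosomes the share went from 49.6% in the sparsest class to 60.9% in the densest. Within the same class of density chromosome 11 and the others had overlapping intervals.

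Among the 46 bins with 8 or more ZT0 sites the shared share had a median of 62.0% and ran from 22.2 to 90%. The highest were 9 of 10 sites from 74 to 75 Mb, whose longest gene is Smg6, of nonsense-mediated mRNA decay, 8 of 9 sites from 109 to 110 Mb, with the sulfatase gene Arsg, and 7 of 8 sites from 104 to 105 Mb, with 1700081L11Rik. The lowest were 2 of 9 sites from 54 to 55 Mb, with Rapgef6, an activator of Rap GTPases, 6 of 16 sites from 95 to 96 Mb, with the zinc finger gene Zfp652, and 5 of 11 sites from 53 to 54 Mb, with Gm12216, a share tied with that of the bin from 103 to 104 Mb. The Wilson interval of the lowest bin went from 6.32 to 54.7% and that of the highest from 59.6 to 98.2%.

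Only 2 sequenced bins of chromosome 11 held more ZT12 than ZT0 sites, while 87 held fewer. On the other autosomes 164 bins held more and 1202 held fewer. The 2 bins on chromosome 11 lie at 27 to 28 Mb, with 1 ZT12 site and no ZT0 site, and at 104 to 105 Mb, with 9 ZT12 and 8 ZT0 sites.

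Shared sites were wider, on chromosome 11 as on the other autosomes. At ZT0 those of chromosome 11 had a median width of 355 bp (quartiles 291 and 429), and ZT0-only sites 285 bp (245 and 337.5). At ZT12 the medians were 294 bp for shared sites and 255 bp for ZT12-only sites. On the other autosomes the medians were 345 and 276 bp at ZT0, and 294 and 249 bp at ZT12. Among the widest ZT0 sites, over 380 bp, 211 of 239 on chromosome 11 were shared (88.3%, 83.6 to 91.8%), against 81.6% elsewhere. Among the narrowest, up to 260 bp, 76 of 195 were shared (39.0%, 32.4 to 45.97%), against 31.3%. In the classes between them the order was the reverse, with 46.8% on chromosome 11 against 49.2% above 260 and up to 313 bp, and 58.1% against 63.2% above 313 and up to 380 bp, and the intervals of both differences include 0. Chromosome 11 had the largest median width of ZT0 sites of the 19 autosomes, 321.5 bp, with chromosome 4 next at 320.5 bp. How width acts on sharing was not tested.

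Sites of chromosome 11 were more often near a transcript start than those of the other autosomes pooled. By the position of the middle of the site, 227 of 890 ZT0 sites (25.5%, 22.8 to 28.5%) were within 1 kb of an annotated transcript start, and 19.8% of the ZT0 sites of the other autosomes pooled were, a difference of 5.73 percentage points (2.85 to 8.80). The shares on chromosomes 4 (23.5%), 19 (23.4%) and 3 (22.9%) lay inside the interval of chromosome 11. A further 67 sites (7.53%) lay in exons, 257 (28.9%) in introns and 339 (38.1%) between genes. Intergenic sites took up 43.8% on the other autosomes, which gave a difference of -5.67 points (-8.96 to -2.28), but the share was smaller still on chromosomes 19 (35.5%) and 8 (37.02%). At ZT12, 148 of 600 sites (24.7%) were near a start, next to chromosome 19 with 25%, 50 (8.33%) in exons, 163 (27.2%) in introns and 239 (39.8%) intergenic. The starts include those of non-coding transcripts, whose annotation differs between chromosomes. Chromosome 11 has 2953 annotated genes for 1653 protein-coding ones, and chromosome 7 has 3053 for 2072. With protein-coding transcripts only, the ZT0 share on chromosome 11 was 18.7%, and none is given here for the other autosomes. With more starts per Mb, more sites lie near one by position alone. The part of annotation and of gene number in the difference was not tested.

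Of the ZT0 sites near a start, 139 of 227 were shared on chromosome 11 (61.2%) and 62.5% elsewhere, a difference of -1.29 points (-8.13 to 5.22). Of the 73 ZT12-only sites of chromosome 11, 11 (15.1%) lay near a start, against 26.0% of the shared ZT12 sites. On the other autosomes pooled these shares were 8.95 and 22.1%. Among the 11 on chromosome 11 was a site 0.036 kb from the start of the peptidase gene Scpep1. Others lay 0.095 kb from that of the DNA polymerase gene Polm and 0.519 kb from that of the citrate transporter gene Slc13a5. These genes were picked after their values were seen.

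Of the 1653 protein-coding genes, 1321 had no ZT0 site in the gene body, 261 had 1 and 54 had 2. The gene with most sites was Myo18a, a myosin gene 102.7 kb long, with 6 ZT0 sites, of which 4 were shared. Rbfox3, a neuronal splicing factor gene of 421.8 kb, and Tbc1d16, of 85.5 kb, had 5 each, of which 2 and 3 were shared. Abr, Arhgap23 and Sept9 followed with 4 each. Odz2, named after its values were seen, is 1229 kb long and had 3, all of them shared. Per 100 kb, Tbc1d16 had 5.85 ZT0 sites and Odz2 had 0.244.

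The motif was read from the sequence. A matrix of 19 positions was learned on the ZT0 sites of the other autosomes, starting from the 12-base word that more of them held than any other, CCACCAGGGGGC in 339 sites, and was then used on chromosome 11. The most frequent base at each position spelled GTGGCCACCAGGGGGCGCT, which is the known form of the CTCF motif. At a threshold that a share of 0.0001 of random positions with equal base frequencies would pass, 862 of 890 ZT0 sites (96.9%, 95.5 to 97.8%) and 582 of 600 ZT12 sites (97.0%, 95.3 to 98.1%) of chromosome 11 had a match. In equally long stretches 5 kb from the sites the shares were 15.3 and 13.8%. The lists are named after a motif search, so a high share of matches may have been required of them and is no result on its own.

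With matrices learned on the other parity of chromosome number, so that no chromosome was scored with its own sites, a match was found in 96.7% of ZT0 sites on chromosome 11 and 97.3% elsewhere, a difference of -0.60 points (-2.02 to 0.44). The exact 12-base word, on either strand, occurs 74 times on chromosome 11, or 0.607 times per Mb, against 0.440 per Mb on chromosome 19, the next. Of these 74, 52 (70.3%) lay in ZT0 sites, and on the other autosomes the share in ZT0 sites ran from 34.4 to 57.1%. The chromosome was chosen by its ZT0 sites per Mb and the word was picked from ZT0 sites. The share is therefore a description and not a separate observation. None of the 890 stretches 5 kb away held it, which allows a share of up to 0.43% by the Wilson interval.

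By the same matrices of other parity, shared ZT0 sites of chromosome 11 had a median motif score of 18.2, and ZT0-only sites 17.1. On the other autosomes the medians were 17.9 and 17.1. The highest score of the chromosome by the matrix from all other autosomes, 25.7, belonged to a shared site at chr11:57633517-57633878, 12.6 kb from the start of Hand1, a transcription factor gene of heart development. It is shown with the 19-base match in capitals, 5′ to 3′, beside the site that came next, 19.4 kb from Nxph3, with a score of 25.03.
Site near Hand1, plus strand: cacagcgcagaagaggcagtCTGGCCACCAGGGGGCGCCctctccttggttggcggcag
Site near Nxph3, chr11:95395062-95395570, plus strand: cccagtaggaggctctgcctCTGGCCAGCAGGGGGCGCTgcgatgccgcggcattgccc
The widest ZT0 site of the chromosome, of 1031 bp at chr11:95119906-95120936, was also shared and had a score of 17.2.

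Neighbouring sites were close. The median spacing of ZT0 sites was 47.1 kb, the smallest of the 19 autosomes, and 289 of 890 (32.5%, 29.5 to 35.6%) had another ZT0 site within 10 kb, against 25.6% elsewhere. Sites over 300 kb from any other numbered 20 (2.25%), against 5.84%. Spacing is another form of the density by which the chromosome was chosen, and is given as a description.

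Motif strand gave the direction of each site. Of the 862 ZT0 sites with a match, 423 (49.1%) had it on the plus strand. Among 737 neighbouring pairs at most 200 kb apart, 193 (26.2%, 23.1 to 29.5%) were convergent, with motifs pointing towards each other, 208 (28.2%) were divergent and 336 (45.6%) pointed the same way. In the 431 pairs at most 50 kb apart the convergent share was 22.7% (19.03 to 26.9%) and the divergent share 32.3% (28.0 to 36.8%). At ZT12, 46 of 226 such pairs (20.4%) were convergent and 81 (35.8%) divergent. Over all neighbouring pairs of a chromosome, convergent and divergent pairs alternate and their numbers can differ by at most 1, and both came to 232 at ZT0. With the matrices by parity, the convergent share of pairs within 200 kb was 26.4% on chromosome 11 and 24.3% elsewhere, a difference of 2.02 points (-1.21 to 5.48).

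Genes of 5 lists were looked up with 50 kb on both sides. Over all protein-coding genes of the chromosome, 75.02% had a ZT0 site and 64.2% a ZT12 site in this window, and 8.89 and 5.32% had 1 within 1 kb of the gene start.

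Of the 4 clock and light-dark genes, 3 had sites. Per1, a light-responsive repressor of the clock, had none in the gene. It had 2 shared sites in the window, centred 28.1 kb upstream and 27.6 kb downstream of its start, and 2 more that were listed at ZT12 only, 2.67 kb upstream and 55.4 kb downstream. The ZT12-only site next to the start, chr11:68905820-68906277, was 458 bp wide, and its best motif match scored 5.81, below the threshold of 7.05. It is shown, on the minus strand, because it is the closest site to a clock gene of the list outside Thra: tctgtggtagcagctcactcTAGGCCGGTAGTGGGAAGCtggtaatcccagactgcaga. Its capitals mark the best match, which falls short of the threshold.

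Nr1d1, which encodes the heme-binding repressor REV-ERB alpha, overlaps the end of Thra on the other strand. It had 5 ZT0 sites in its window, of which 4 were shared, and none in the gene. The nearest, chr11:98648208-98648647, lay 11.8 kb upstream with a match of score 6.86, below the threshold, and a site with a match of 14.7 lay 13.7 kb upstream. Thra had 7 ZT0 sites in its window, 6 of them shared, and the ZT0-only site lay in an intron 14.2 kb downstream of its start. All 5 ZT0 sites counted for Nr1d1 are among these 7. Csnk1d, a kinase gene whose product acts on PER proteins, had neither a ZT0 nor a ZT12 site in its window, and its closest ZT0 site was 50.03 kb from the start.

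Of the 9 genes of the metabolism list, 8 had a ZT0 site and 6 a ZT12 site in the window. G6pc, the catalytic subunit gene of glucose-6-phosphatase, had 2 sites, 43.8 kb upstream and 27.8 kb downstream, both listed at ZT0 only. Slc2a4, which encodes the insulin-responsive glucose transporter GLUT4, had a ZT0-only site 0.897 kb upstream of its start and a shared site 13.9 kb downstream.

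Genes of lipid synthesis had shared sites. Fasn, the fatty acid synthase gene, had 2, at 24.0 and 47.9 kb downstream, and Acly, which makes cytosolic acetyl-CoA, had 2, at 27.8 and 42.6 kb upstream. Srebf1, which encodes the lipogenic regulator SREBP1, had a shared site in an exon 22.7 kb downstream and a ZT0-only site 28.8 kb upstream. Pemt, of phosphatidylcholine synthesis, had a shared intronic site 19.03 kb downstream, another shared site 81.1 kb downstream and a ZT12-only site 30.6 kb upstream. Both sites of Aldh3a2, a fatty aldehyde dehydrogenase gene, were ZT0-only, and Shmt1, of 1-carbon metabolism, had none.

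All 6 genes of secreted liver proteins had a ZT0 site in the window and 5 had a ZT12 site. The neighbours Igfbp1 and Igfbp3, which encode binding proteins of insulin-like growth factors, shared 3 ZT0 sites. That in an intron of Igfbp3 was listed at both times and those in an intron of Igfbp1, 2.46 kb from its start, and 36.0 kb upstream of Igfbp1 at ZT0 only. Apoh, which encodes beta-2-glycoprotein I, had a ZT0-only site in the gene, 35.0 kb from its start, and its nearest ZT12 site was 483.9 kb away. Vtn, the vitronectin gene, had a shared site 10.7 kb and a ZT0-only site 8.20 kb upstream. The serpin genes Serpinf1 and Serpinf2 shared 1 site, listed at both times.

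Of the 7 regulators, 6 had sites at both times. Stat3 had 4 ZT0 sites in its window and all were shared, as was the only site of Stat5a. Rara, the retinoic acid receptor alpha gene, had 3 ZT0 sites in introns, of which 2 were shared, and Stat5b had 3 sites in its window, of which 2 were shared. The site of Stat5a was also counted for Stat3 and for Stat5b. Hlf, a PAR bZIP factor gene of the clock output, had 1 shared site in its window and lies at the edge of the stretch of 3.16 Mb without sites. The corepressor gene Ncor1 had no site within 50 kb, and its nearest ZT0 site was 116.9 kb from the start.

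The 4 imprinted genes lie in a pair of loci. Grb10, which encodes an adaptor that restrains insulin and growth signalling, had a shared intronic site 65.1 kb downstream of its start and a ZT0-only site at chr11:11925751-11926018, 12.8 kb downstream and within 1 kb of an internal transcript start. Its neighbour Ddc, the aromatic amino acid decarboxylase gene, had a shared site and a ZT12-only site downstream. Zrsr1 lies in an intron of Commd1, a gene of copper balance. A ZT0-only site centred 0.049 kb from the start of Commd1 had a best match of 5.54, below the threshold, and a shared site lay 5.12 kb upstream of Commd1 with a score of 15.1.
Grb10 internal start, plus strand, ZT0 only: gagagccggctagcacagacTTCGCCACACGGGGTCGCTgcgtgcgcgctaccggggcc
Grb10 intron, minus strand, shared: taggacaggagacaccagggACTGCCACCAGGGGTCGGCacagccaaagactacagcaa
These are the sites inside an imprinted gene that passed the threshold, with scores of 11.7 and 18.7, and the capitals mark the 19-base match.

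Gene clusters of chromosome 11 ranged from site-rich to empty. The Hoxb cluster, 10 homeobox genes over 173.9 kb, had 5 ZT0 sites between its ends, of which 3 were shared, and 3 ZT12 sites, all of them shared. They lay near Hoxb9, in an intron near Hoxb6 and 0.606 kb from the start of Hoxb5. The ZT0-only sites lay 2.95 kb from the start of Hoxb8 and, further out, 16.0 kb from that of Gm53. With 50 kb on both sides the cluster had 18.3 ZT0 sites per Mb.

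The alpha-globin genes, 3 genes over 20.9 kb, had no site between them and 6 ZT0 sites within 50 kb, of which 4 were shared. Of these 6, 5 had the motif on the minus strand. This gave 49.6 ZT0 sites per Mb, the highest value of the clusters, over a window of 0.121 Mb. The Cd300 cluster of immune receptor genes had 7 ZT0 sites in its window and all 7 were shared. The skeletal muscle myosin genes, 6 Myh genes over 293.3 kb, had 9, of which 4 were shared, and 8 of them lay between the ends of the cluster.

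Other clusters lay above, near or below the 7.30 ZT0 sites per Mb of the chromosome. The keratin cluster, 49 genes over 1037 kb, had 8 ZT0 sites in its window, or 7.04 per Mb, and 4 between its ends. Of the olfactory receptor groups, that of 29 genes over 1015 kb had 1 ZT0 site in its window, or 0.897 per Mb, and none between its ends, while that of 23 genes over 1159 kb, whose span also holds the signalling genes Wnt3a and Wnt9a, had 11, or 8.73 per Mb, of which 4 were shared. The group from Olfr56 to Olfr1380 had 2, that from Olfr1378 to Olfr1375-ps1 had 2, or 11.1 per Mb, both ZT0-only, that from Olfr1373 to Olfr1371 had 1, and that from Olfr462 to Olfr464 had none. Of the chemokine groups, the 6 genes from Ccl2 to Ccl1 had 3 ZT0 sites in the window, or 8.11 per Mb, all shared, and 4 ZT12 sites, of which 3 were shared. The 5 genes from Ccl5 to Ccl4 had none at either time. The Schlafen genes, from Slfn5 to Slfn3, had 2 sites in the window at ZT0 and 3 at ZT12. The Abca group, 5 lipid transporter genes over 405.5 kb, had no ZT0 site and 1 ZT12-only site.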

How the data were processed

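CTCF ChIP-seq of mouse liver was used, from 2 ZT0 and 2 ZT12 samples. The authors used Bowtie2 for mapping to NCBIM37/mm9, SAMtools for a filter on mapping quality, and MACS2 for peaks after removing duplicates, and deposited 1 list of positions per time for both replicates, labelled with the motif tool FIMO. How replicates were combined and FIMO applied is not given in the sources used here. No row was left out and none was duplicated.

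Sites were counted by midpoint in 1 Mb bins. Genes came from GENCODE release M1 of the same build. Shares have Wilson intervals, differences Newcombe intervals and densities exact Poisson intervals. No p-value was computed, as there are no replicate values. The genes named are those in the 5 densest bins (up to 8 each), the 5 longest stretches without a site and under 10% N, the 5 genes with most sites and 1 tied with the last of them, the bins with highest and lowest sharing, and fixed lists and clusters. The members and lists were chosen with earlier results of these data known. Overlap, bin, motif and orientation steps were tested on simulated data. Alternatives covered overlap, bins, gene sets, motif threshold and pair distance. The tools were pysam 0.24.0, pandas 2.3.3, SciPy 1.17.1 and NumPy 2.4.6 under Python 3.11.15.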

Additional observations from a re-analysis of the deposited data

How the results depend on the processing

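Of 32 alternatives to 12 results, 22 stayed within the interval, or for counts within a factor of 1.5, of the main value. The main value was the one reported, except for bins without a ZT0 site. There it was 20, with unsequenced bins included, and the reported 17 was an alternative. The alternatives that moved further were as follows. The ratio of chromosome 11 to the next autosome became 0.751 per annotated gene start, with chromosome 15 the highest. Sharing of ZT0 sites became 67.5% with the widest ZT0 sites alone, and sharing of ZT12 sites became 70.8% with that list and 84.2% when at least 50% of both sites had to overlap. The share near a gene start became 18.9% within 500 bp, 53.9% within 5 kb and 18.7% for protein-coding transcripts only. The share with a motif match became 82.7% at a threshold that a share of 0.00001 of random positions would pass, and the convergent share 22.7% for pairs at most 50 kb apart. The correlation of sites and gene starts became 0.77 without olfactory receptor and keratin genes, an alternative chosen after seeing the data. The cause of these shifts was not tested. No paired analysis was possible because both replicates of a time stand in 1 list, and for the same reason leaving out each replicate in turn could not be run. Depth limits every count of sites listed at 1 time only, since a weak site can miss a list by depth alone, and depth is unknown here.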
